A study of Mus musculus with 12 samples.

Results

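The genes described here encode the LEM-domain proteins of the mouse inner nuclear membrane and nucleoplasm, with the small DNA-binding protein that they share as a partner. They were chosen by symbol: Emd (emerin), Lemd2 (LEM2), Lemd3 (MAN1), Tmpo (lamina-associated polypeptide 2, LAP2), Ankle2 (LEM4) and Banf1 (barrier-to-autointegration factor, BAF). All 6 of the 6 symbols were found among the 22552 genes of the table. Messenger RNA was measured by sequencing in mouse striated muscle and myoblasts with a knockout of the lamin B receptor gene Lbr or of the A-type lamin gene Lmna. Emd was the member that differed most, and it differed between tissues: 2.22 to 3.73 FPKM in the muscle groups against 51.6 to 87.4 FPKM in the myoblast groups. In none of the knockout comparisons did any of the 6 genes change by 2-fold, a size that 1.23% to 3.45% of all genes tested reached.

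The study's 12 samples were all from C57Bl/6 mice, 6 from striated muscle and 6 from myoblasts. The muscle groups were Lbr-knockout, Lmna-knockout and wild-type tissue, with 2 samples each. The myoblast groups were Lbr-knockout (2 samples) and Lmna-knockout cells (2), and wild-type littermates' cells, 1 sample for the Lbr litter and 1 for the Lmna litter. Homozygous knockout and wild-type littermates came from crosses of heterozygous animals. Neither the age of the animals nor the muscle taken nor the knockout alleles are stated in the labels. The table holds a single FPKM value per gene and group (sequenced fragments, corrected for transcript length in kilobases and for the library's mapped total), so the spread between animals is not measured and no value carries an error.

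Most members span the inner nuclear membrane and all but Banf1 carry a LEM domain, a short fold that binds BAF, which in turn binds DNA and A-type lamins. Through these contacts they tie chromatin to the nuclear lamina, and BAF gathers LEM proteins onto chromosomes when the nuclear envelope reforms after mitosis. In striated muscle the family is best known for emerin, whose loss in humans causes the X-linked form of Emery-Dreifuss muscular dystrophy, a disease that mutations of LMNA also cause.

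The bases upstream of 3 members are shown, because Emd and Tmpo fell past 2-fold in wild-type muscle against wild-type myoblasts and Ankle2 had the narrowest range of the 6 over the 7 groups. The sequences are those of RefSeq on build GRCm38.p6, 5′ to 3′ on the strand of the gene, 250 bases ending just before the annotated start, and capitals mark CCAAT in either direction. Emd is on the plus strand at chrX:74254437-74254686, Tmpo on the minus strand at chr10:91171620-91171869 (the first of its 2 starts), and Ankle2 on the plus strand at chr5:110230754-110231003.
Emd: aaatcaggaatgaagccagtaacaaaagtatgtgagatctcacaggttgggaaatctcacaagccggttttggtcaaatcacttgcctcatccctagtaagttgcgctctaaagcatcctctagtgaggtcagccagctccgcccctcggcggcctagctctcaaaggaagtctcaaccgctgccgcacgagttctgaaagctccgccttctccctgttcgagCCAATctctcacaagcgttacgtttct
Tmpo: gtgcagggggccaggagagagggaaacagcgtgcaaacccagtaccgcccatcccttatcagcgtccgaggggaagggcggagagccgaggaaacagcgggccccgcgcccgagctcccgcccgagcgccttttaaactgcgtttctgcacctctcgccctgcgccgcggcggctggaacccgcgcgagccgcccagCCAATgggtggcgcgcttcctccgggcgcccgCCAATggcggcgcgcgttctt
Ankle2: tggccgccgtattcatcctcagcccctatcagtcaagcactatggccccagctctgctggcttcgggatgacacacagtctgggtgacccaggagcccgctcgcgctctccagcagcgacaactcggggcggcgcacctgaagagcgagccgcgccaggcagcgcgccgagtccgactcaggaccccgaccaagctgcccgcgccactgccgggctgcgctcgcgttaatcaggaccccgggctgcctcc

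Windows of 300 bases, 250 before and 50 after the start, were held for 5 of the 6 members, 7 windows in all. Lemd2 had none. The Emd window was 53.7% G and C, close to the median of 52.7% over 32851 promoter windows, and held 15 CG pairs against a median of 7. The first Tmpo window was 71.7% G and C with 36 CG pairs, and that of Ankle2 was 69.0% with 32. CCAAT began 27 bases before the start of Emd and 53 and 21 bases before that of Tmpo, and was not in the Ankle2 window; 37.4% of all windows held it. CCAAT was also in the Lemd3 window and in the first Banf1 window. Of the other motifs, each searched on both strands with overlapping matches kept, GGGCGG was in windows of Emd, Lemd3, Tmpo, Banf1 and Ankle2 and in 35.7% of all windows. For Tmpo it was in the first window only. The E-box CANNTG was in windows of the same 5 genes and in 72.3% of all windows. For Tmpo it was in the second window only, and for Banf1 in the first only. TATAAA was in no member's window and in 13.6% of all windows.

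Before the members were compared, the groups were checked against their labels. Lmna was 18.5 FPKM in Lmna-knockout myoblasts against 147 in their littermate control, and 22.6 in Lmna-knockout muscle against 59.5 in wild-type muscle. Lbr was 7.71 FPKM in Lbr-knockout myoblasts against 16.1 in their littermate control, which is -0.97 on the log2 scale and short of 2-fold unless the median of all genes is subtracted, and 1.87 in Lbr-knockout muscle against 11.8 in wild-type muscle. The muscle-fibre genes Ckm and Myh4 were at 4490 to 5120 and 9780 to 13000 FPKM in the muscle groups. In the myoblast groups the satellite-cell and myoblast genes Pax7 and Myf5 were close to 0, at 0.152 to 0.273 and 0.191 to 0.441 FPKM. Cdh15 was at 0.498 to 1.22, Myod1 at 2.09 to 5.51 and Des at 18.7 to 85.2 FPKM there. In the muscle groups they were at 7.1 to 8.79, 16.4 to 18.1 and 731 to 909 FPKM. Ncam1 was higher in myoblasts, at 56.5 to 73.3 against 12.4 to 14.9 FPKM. The summed level of 6 fibroblast genes was 2170 to 2700 FPKM in the myoblast groups and 1660 to 1750 in the muscle groups. In wild-type muscle against wild-type myoblasts 2 of these 6 were past 2-fold higher and 1 lower. Of all genes 16.9% were higher and 37.2% lower. The 4 myoblast groups differed in other cells and states. The summed level of 9 macrophage genes was 295 FPKM in Lbr-knockout myoblasts against 70.1 in their control. It was 250 FPKM in Lmna-knockout myoblasts against 291 in their control. Against these controls 9 of 9 were past 2-fold upwards for Lbr and 0 of 9 for Lmna. For all genes the upward shares were 2.51% and 0.648%, so 0 of 9 is near the share for Lmna. The controls differed too, with 8 of 9 past 2-fold lower in the Lbr-litter than in the Lmna-litter wild type, against 2.03% of all genes. The summed level of 5 genes of differentiating myoblasts was 297 FPKM in Lbr-knockout myoblasts against 82.6 in their control, with 5 of 5 genes past 2-fold upwards. It was 46.4 FPKM in Lmna-knockout myoblasts against 153 in theirs, with 5 of 5 genes past 2-fold downwards, against 0.578% of all genes. The part of these cells and states in the member values was not tested. In bulk samples such as these, fewer cells of a type and less RNA per cell cannot be told apart.

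**Figure D1:**
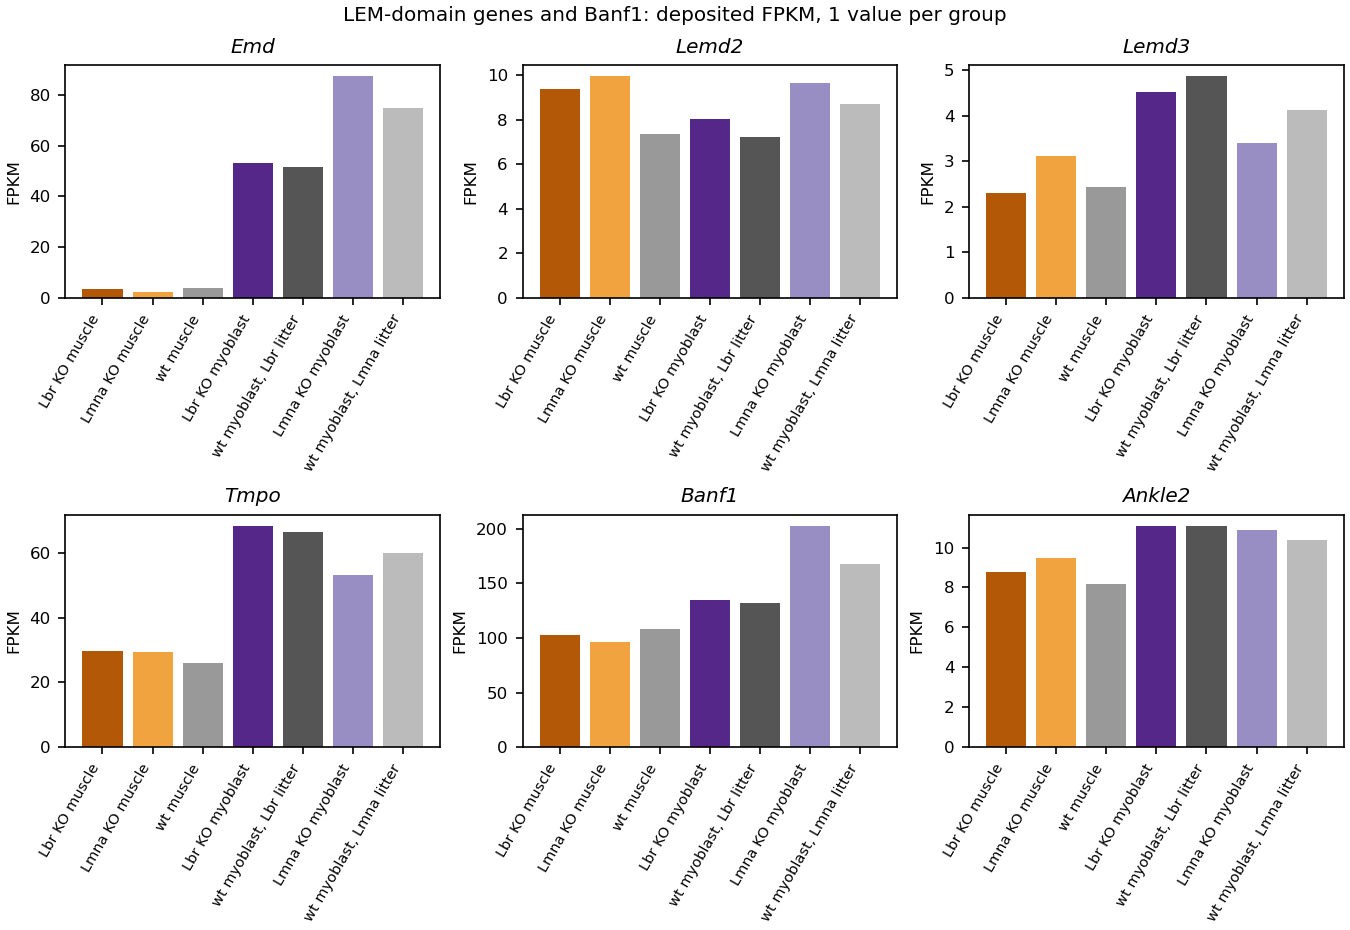
Deposited FPKM (vertical axis, linear, from 0, with its own scale in each panel) of the 6 genes in the 7 groups, 1 bar per group and no error bars because the table has 1 value per group. The 3 muscle bars of Emd lie between 2.22 and 3.73 FPKM and its 4 myoblast bars between 51.6 and 87.4, whereas the bars of Lemd2 and Ankle2 are of similar height throughout.

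Banf1, which encodes the BAF protein itself, had the highest level of the 6 in every group. It measured 103 FPKM in Lbr-knockout muscle, 96.1 in Lmna-knockout muscle and 108 in wild-type muscle. In myoblasts it measured 135 FPKM in the Lbr knockout and 132 in its control, and 203 in the Lmna knockout and 168 in its control. Every myoblast group was above every muscle group, and the highest value was 2.11 times the lowest. How many of all genes separate the tissues in this way was not counted, here and for the members below. In wild-type muscle against wild-type myoblasts only 34.4% of all genes were above 0, so such a separation is not read as a trait of the members. Banf1 lay at the 95.2nd to 97.4th percentile of the genes at 1 FPKM or more in each group. Both myoblast groups of the Lmna litter were higher than both of the Lbr litter. Ordered by level, no neighbouring groups were further apart than 0.31 on the log2(FPKM + 1) scale, less than the gap of 0.35 between the 2 wild-type myoblast cultures.

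Ankle2 encodes a LEM protein of the endoplasmic reticulum and nuclear envelope that lets BAF be dephosphorylated at the end of mitosis. Its level was 8.78 FPKM in Lbr-knockout muscle, 9.49 in Lmna-knockout muscle and 8.17 in wild-type muscle. It was 11.1 FPKM in Lbr-knockout myoblasts and 11.1 in their control, and 10.9 in Lmna-knockout myoblasts and 10.4 in theirs. The muscle groups lay below the myoblast groups without overlap, but the highest level was only 1.36 times the lowest. On the log2(FPKM + 1) scale the range was 0.40, and 2.41% of 12001 genes had a smaller one; the median range of those genes was 1.49. Within the 4 myoblast groups the range was 0.08, smaller than in all but 1.74% of genes. The gap between the wild-type cultures was 0.08, and 3 of 6 steps in the order of levels exceeded it, the largest (0.13) between Lmna-knockout muscle and Lmna-litter wild-type myoblasts.

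Emd encodes emerin, a lamin-binding membrane protein. It measured 3.53 FPKM in Lbr-knockout muscle, 2.22 in Lmna-knockout muscle and 3.73 in wild-type muscle. In myoblasts it measured 53.4 FPKM in the Lbr knockout and 51.6 in its control, and 87.4 in the Lmna knockout and 75 in its control. The 2 tissues were far apart, at a ratio of 39.3 between the highest and the lowest group, and a range of 4.78 on the log2 scale that was larger than that of 97.5% of genes. Among genes at 1 FPKM or more Emd stood at the 17.5th to 33.5th percentile in muscle and at the 89.1st to 93.5th in myoblasts. Within myoblasts the range was 0.75, with both Lmna-litter groups above both Lbr-litter groups, and 82.9% of genes had a smaller one. In the order of levels, the step between wild-type muscle and Lbr-litter wild-type myoblasts (3.47) was the sole one of 6 larger than the gap of 0.53 between the 2 wild-type cultures. By a rough estimate the muscle values rest on few fragments. The commonest low value of FPKM times length in kilobases, over genes with 1 transcript, was assumed to be 1 fragment. For groups of 2 samples it is not known how the samples were combined. The estimate was about 13 fragments in Lbr-knockout and 17 in wild-type muscle, against 700 to 1300 in the myoblast groups. In Lmna-knockout muscle the commonest value was less distinct (155 genes in its bin, against a median of 69 over all bins) and gave about 4.4 fragments.

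Tmpo encodes the LAP2 isoforms, of which LAP2-alpha is soluble in the nucleoplasm and binds A-type lamins and the retinoblastoma protein, while others are membrane-bound and bind B-type lamins. The single value per gene does not separate them. Tmpo measured 29.7 FPKM in Lbr-knockout muscle, 29.5 in Lmna-knockout muscle and 26.1 in wild-type muscle. It measured 68.5 FPKM in Lbr-knockout myoblasts and 66.6 in their control, and 53.3 in Lmna-knockout myoblasts and 60.1 in theirs. All myoblast groups exceeded all muscle groups, with a ratio of 2.63 from highest to lowest. In contrast to Emd and Banf1, the Lbr-litter myoblasts were the higher. In the order of levels 3 of 6 steps exceeded the gap of 0.15 between the wild-type cultures, the largest (0.82) between Lbr-knockout muscle and Lmna-knockout myoblasts.

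Lemd2 encodes LEM2, which recruits the membrane-sealing ESCRT-III machinery to the reforming nuclear envelope. Its level was 9.38 FPKM in Lbr-knockout muscle, 9.95 in Lmna-knockout muscle and 7.37 in wild-type muscle. It was 8.03 FPKM in Lbr-knockout myoblasts and 7.24 in their control, and 9.65 in Lmna-knockout myoblasts and 8.72 in theirs. Muscle and myoblast groups overlapped, and each knockout value was above its own control. The range of 0.41 on the log2 scale was larger than in only 2.65% of genes. None of the 6 steps in the order of levels exceeded the gap of 0.24 between the wild-type cultures.

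Lemd3 encodes MAN1, which binds receptor-regulated SMAD proteins and restrains TGF-beta and BMP signalling. It had the lowest level of the 6 in every group except Lmna-knockout muscle, where Emd was lower. It measured 2.3 FPKM in Lbr-knockout muscle, 3.12 in Lmna-knockout muscle and 2.43 in wild-type muscle. It measured 4.52 FPKM in Lbr-knockout myoblasts and 4.87 in their control, and 3.4 in Lmna-knockout myoblasts and 4.14 in theirs. The muscle values were below the myoblast values, with Lmna-knockout muscle and Lmna-knockout myoblasts the closest pair across the tissues. Of the 6 steps in order, 2 exceeded the gap of 0.19 between the wild-type cultures, that from wild-type to Lmna-knockout muscle (0.26) and that between Lmna-knockout myoblasts and their control. The relatives outside the list were low or at 0: Ankle1, a LEM nuclease, had 0.58 to 1.42 FPKM in muscle and 2.9 to 4.43 in myoblasts, Lemd1 was above 0 in 1 group only, and Banf2 was listed at 0 in all 7.

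The first question of the design was whether loss of Lbr changed myoblasts relative to the wild type of the same litter. On the log2(FPKM + 1) scale, with a pseudocount of 1 FPKM, the differences of the 6 members ran from -0.09 for Lemd3 to 0.13 for Lemd2. Emd differed by 0.05, Tmpo by 0.04, Banf1 by 0.03 and Ankle2 by -0.01. The median of the members was 0.04, beside 0.05 for all genes. A gene was counted as past 2-fold where its log2 difference was 1 or more in size, its mean reached 1 FPKM and neither group was listed at 0. This held for 0 of 6 members and for 2.63% of 11472 genes. That background was on 1 side: 2.51% of genes were higher and 0.122% lower.

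Loss of Lmna in myoblasts gave a wider set of differences. Banf1 was higher by 0.27, Emd by 0.22, Lemd2 by 0.13 and Ankle2 by 0.06, and Lemd3 differed by -0.23 and Tmpo by -0.17. None of the 6 passed 2-fold, as against 1.23% of 11411 genes, and their median was 0.10 beside 0.04 for all genes. Short transcripts were somewhat higher in this comparison: the median over genes of up to 1000 bases, the class of Banf1 (758 bases), was 0.14, and that over 1001 to 1500 bases, the class of Emd (1117 bases), was 0.09. Relative to the medians of their classes, Banf1 was at 0.13 and Emd at 0.13.

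The 2 wild-type myoblast cultures give the sole view of how far samples without a knockout can differ. In the Lbr-litter wild type, relative to the Lmna-litter wild type, Emd differed by -0.53, Banf1 by -0.35, Lemd2 by -0.24, Ankle2 by 0.08, Tmpo by 0.15 and Lemd3 by 0.19. No member passed 2-fold, against 2.71% of 11402 genes, a share no smaller than the 2.63% and 1.23% of the Lbr and Lmna knockouts against their own controls. None of the 6 Lbr-knockout differences was larger than this gap between wild types. Of the Lmna-knockout differences, those of Lemd3 (-0.23 against a gap of 0.19) and Tmpo (-0.17 against 0.15) were larger in size and the other 4 were not. The gap followed transcript length over all genes, from a median of -0.40 in transcripts of up to 1000 bases to 0.19 in those over 6000 bases. Banf1, in the shortest class, and Ankle2, in the class of 4001 to 6000 bases with a median of 0.07, were near the medians of their classes, whereas Emd was below its class median of -0.26 and Tmpo above its class median of -0.17. Against the Lmna-litter wild type, 8 of 9 macrophage genes and 2 of 5 differentiating-myoblast genes were past 2-fold lower in the Lbr-litter wild type. Of all genes 2.03% were. The part of these cells and states in the gap was not tested. The same litters also differed in Xist, at 0.00569 FPKM in the Lbr-litter and 6.67 in the Lmna-litter wild type. The Y-linked Ddx3y was at 21.4 FPKM in the Lbr-litter and 8 in the Lmna-litter wild type. Xist also differed within the knockout comparisons, at 56.6 FPKM in Lbr-knockout myoblasts against 0.00569 in their control and 22.1 in Lmna-knockout myoblasts against 6.67 in theirs. The Y-linked genes did not all move the opposite way. In Lbr-knockout myoblasts Ddx3y was 11.6 FPKM against 21.4 and Eif2s3y 23.1 against 22.8. In Lmna-knockout myoblasts Ddx3y was 8.9 FPKM against 8 and Eif2s3y 5.83 against 10.1. With Xist included, 2 of 5 sex-linked genes were above 0 for Lbr and 4 of 5 for Lmna. Emd is X-linked, and the part of the sex of the animals in its values was not tested.

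Set against both wild types together, 1 of 6 members lay outside them in Lbr-knockout myoblasts, Tmpo above both, where 54.3% of 11447 genes did so. In Lmna-knockout myoblasts 5 of 6 members lay outside both wild types, where 67.7% of 11375 genes did so. Emd, Lemd2 and Banf1 were above both, Lemd3 and Tmpo were below both, and Ankle2 was between them. A limma fit over the 4 myoblast groups, with both wild types as 1 group, called 0.323% of 11447 genes for the Lbr knockout (37 genes) and 0.411% for the Lmna knockout (47 genes) at an adjusted p under 0.05. Its calls included none of the 6 members, whose adjusted p-values by limma were all 1. Without adjustment 341 genes for the Lbr knockout and 404 for the Lmna knockout had a p under 0.05, and no member was among them. The largest member difference was that of Emd in the Lmna knockout, at 0.48 with a standard error of 0.359. Banf1 followed in the Lmna knockout with 0.45 and a standard error of 0.379. In the Lbr knockout the largest was also that of Emd, at -0.22 with a standard error of 0.359. The fit does not use the litter: against its own litter's wild type Emd differed by 0.05 in Lbr-knockout myoblasts, and the 2 wild types differed by -0.53. The standard errors rest on the 2 wild-type libraries (1 residual degree of freedom and 25.8 from the prior), so differences of these sizes were not detectable in this design, which does not show that the levels were alike.

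**Figure D2:**
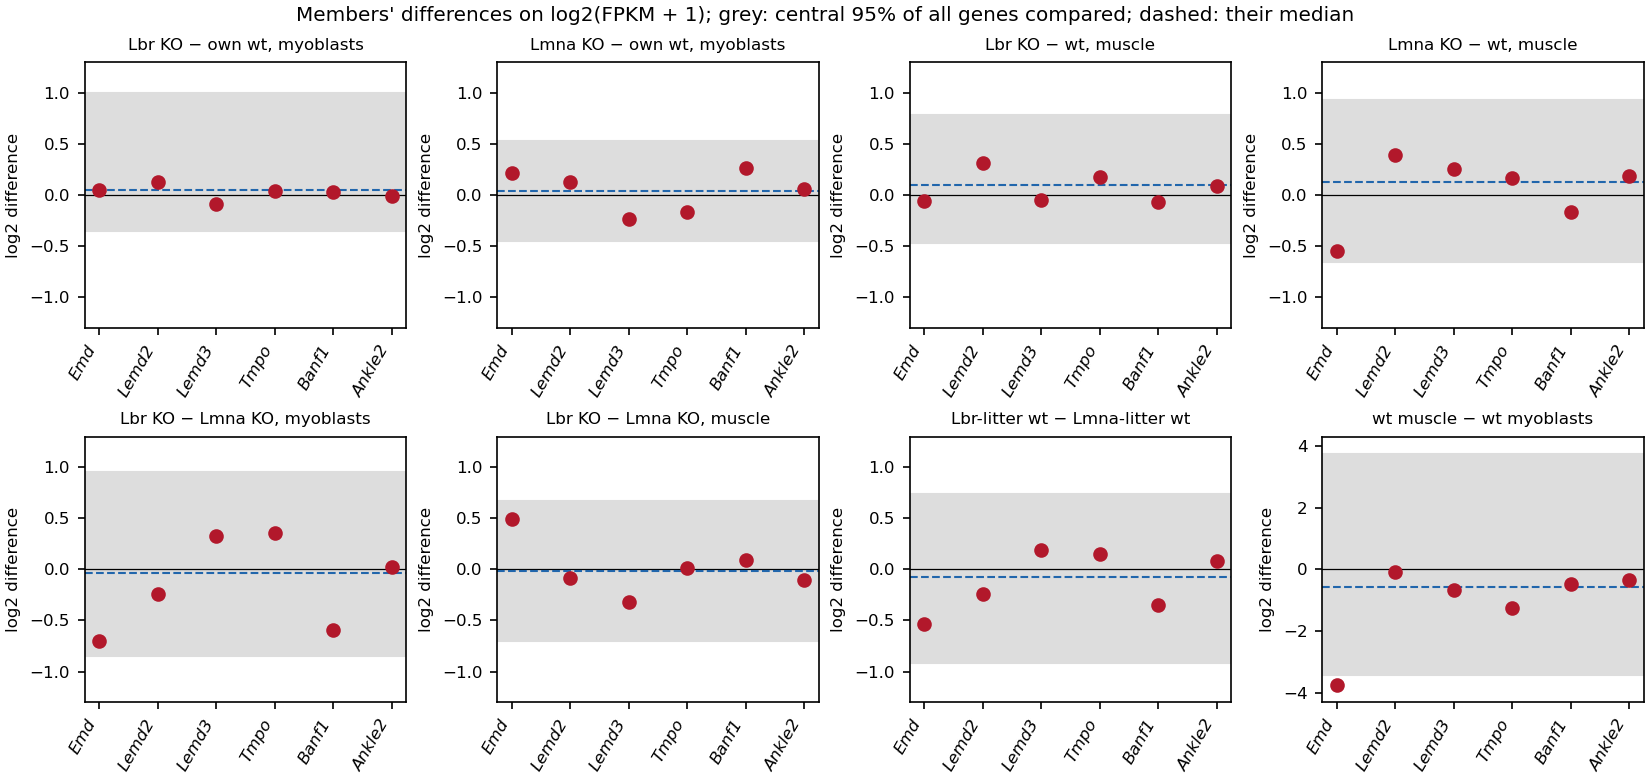
Difference on the log2(FPKM + 1) scale (vertical axis) of each member (red points) in 8 comparisons, each written in its panel title with the group subtracted last. Grey bands hold the central 95% of all genes compared and dashed lines their median; the last panel has a wider scale, and there Emd, at -3.74, lies below the band.

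The knockouts were also compared directly in myoblasts. In Lbr-knockout relative to Lmna-knockout myoblasts Emd differed by -0.70, Banf1 by -0.59, Lemd2 by -0.24, Ankle2 by 0.02, Lemd3 by 0.33 and Tmpo by 0.36. Relative to the medians of their length classes, Emd was at -0.48 between the knockouts and -0.28 between the wild types of those litters, and Banf1 at -0.23 between the knockouts and 0.05 between the wild types. No member passed 2-fold, against 3.45% of 11552 genes, and litter and genotype cannot be told apart here.

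In Lbr-knockout muscle the members' differences from wild-type muscle ran from -0.07 to 0.31. The largest, that of Lemd2, was larger in size than the difference of 73.3% of genes. Lemd2 was higher by 0.31 (9.38 against 7.37 FPKM) and Tmpo by 0.18, Ankle2 differed by 0.09, and Banf1, Emd and Lemd3 by -0.07, -0.06 and -0.05. None passed 2-fold, against 1.59% of 12000 genes, and the members' median was 0.02 beside 0.10 for all genes. The muscle libraries differed in lymphoid genes, whose sum over 8 genes was 56.8 FPKM in Lbr-knockout muscle, 34.2 in Lmna-knockout muscle and 13.8 in wild-type muscle. Schwann-cell genes summed to 951 FPKM over 5 genes in Lbr-knockout muscle, 588 in Lmna-knockout muscle and 452 in wild-type muscle. Adipocyte genes summed to 711 FPKM over 4 genes in Lbr-knockout muscle, 612 in Lmna-knockout muscle and 486 in wild-type muscle. Most of the adipocyte sum was Fabp4, at 463 FPKM in Lbr-knockout, 534 in Lmna-knockout and 402 in wild-type muscle. For Lmna-knockout against wild-type muscle 1 of 4 adipocyte genes was above 0, against 65.5% of all genes, and the list's median was -0.12. For Lbr-knockout against wild-type muscle, 1.32% of all genes passed 2-fold upwards. In these lists 6 of 8 lymphoid genes, 2 of 5 Schwann-cell genes and 1 of 4 adipocyte genes did. Their part in the member values was not tested.

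With loss of Lmna in muscle, Emd was 2.22 FPKM in Lmna-knockout muscle against 3.73 in wild-type muscle, a log2 difference of -0.55, where the median of all genes was 0.13 and 2.5% of genes lay below -0.65. Lemd2 was higher by 0.39, Lemd3 by 0.26, Ankle2 by 0.19 and Tmpo by 0.17, and Banf1 differed by -0.17. None of the 6 passed 2-fold, against 2.74% of 12025 genes. The Emd difference was -0.72 at a pseudocount of 0.1, -0.27 at a pseudocount of 5 and -0.87 with quantile normalization. With few Emd fragments behind both values, it cannot be set against counting error. Proliferation genes also lay lower in Lmna-knockout muscle: the median over 25 genes was -0.52 and 2 of 25 were above 0, against 65.5% of all genes. Among the proliferation genes Top2a alone passed 2-fold (3.62 against 8.76 FPKM). Xist was 11.4 FPKM in Lmna-knockout muscle against 0.0153 in wild-type muscle. The Y-linked genes were higher there as well, so that 5 of 5 sex-linked genes were above 0. Among them were Ddx3y (27.5 against 19.5 FPKM) and Kdm5d (5.97 against 2.88). The part of the proliferation genes and of the sex of the animals in the Emd value was not tested.

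Set directly against each other, Lbr-knockout and Lmna-knockout muscle differed by 0.49 in Emd (3.53 against 2.22 FPKM) and by -0.32 in Lemd3 (2.3 against 3.12). Banf1 differed by 0.09, Tmpo by 0.01, Lemd2 by -0.08 and Ankle2 by -0.10. No member passed 2-fold, against 1.51% of 12198 genes. Both knockouts share the wild-type muscle group, so that the members' differences from it are not independent of each other.

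The tissues were compared next. In wild-type muscle against the mean of both wild-type myoblast groups, all 6 differences were below 0 and 2 of 6 passed 2-fold, where 54.1% of 11911 genes passed, 37.2% lower and 16.9% higher. The split depends on scaling: 31.3% of the genes past 2-fold were higher as deposited, and 54.3% after centring on the median of all genes. The median over all genes was itself -0.57, and so was the median over the 6 members. Emd fell by 3.74 and Tmpo by 1.25 on the log2 scale. Lemd3 differed by -0.68, Banf1 by -0.46, Ankle2 by -0.36 and Lemd2 by -0.10. Relative to the median of all genes, Emd remained at -3.17 and Tmpo was at -0.67, short of 2-fold, while Lemd2 was at 0.48, Ankle2 at 0.21, Banf1 at 0.12 and Lemd3 at -0.11. With 6 members, the share of 2 in 6 is not read against the background of 54.1%. The Emd difference was larger in size than that of 95.9% of genes, and that of Lemd2 than 4.68%. Those of Ankle2, Banf1, Lemd3 and Tmpo were larger than 17.1%, 21.7%, 32.5% and 55.9%. The libraries of the tissues were made by different kits, so kit and tissue cannot be told apart.

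The tissue difference also followed transcript length, from a median of 0.38 in transcripts of up to 1000 bases to -0.89 in those over 6000 bases. Relative to the median of its own length class Emd was at -3.65, Tmpo at -0.85, Banf1 at -0.83, Lemd3 at 0.19, and Lemd2 and Ankle2 at 0.51 each. On this scale Banf1 changed from a value near that of all genes to one below its class, and Lemd3 turned from below 0 to above. The Emd difference kept its sign and stayed past 2-fold on each scale.

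**Figure D3:**
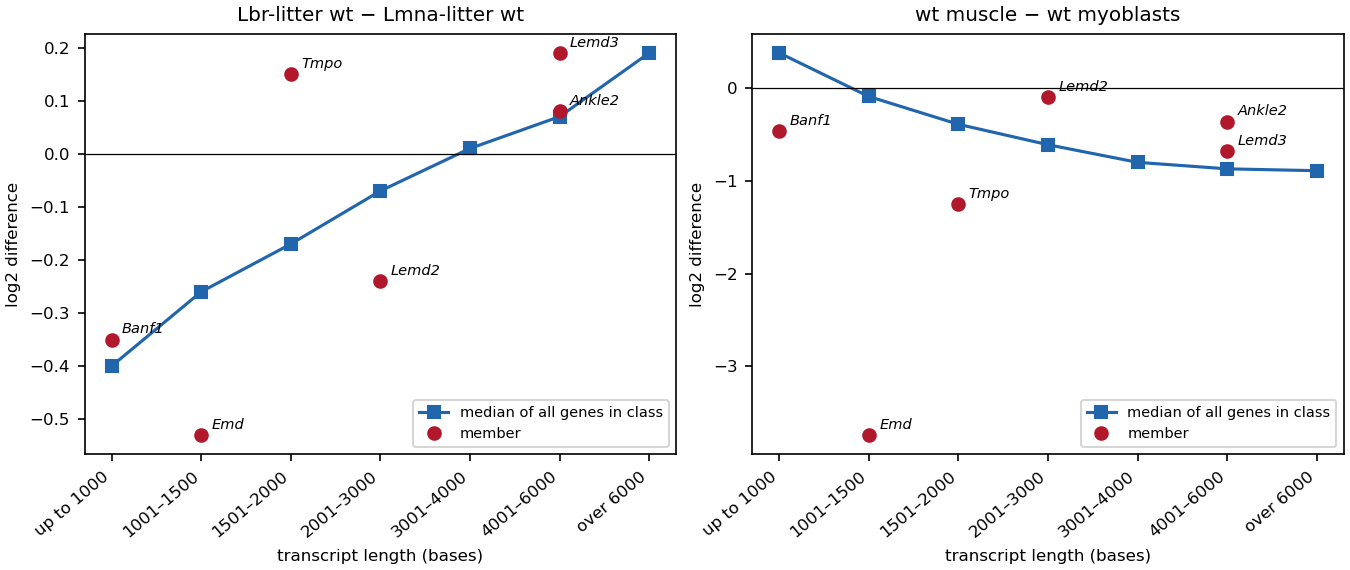
Median log2 difference of all genes in 7 classes of transcript length in bases (blue squares, joined) with the 6 members at their own class (red points), for the Lbr-litter against the Lmna-litter wild-type myoblasts (left) and for wild-type muscle against wild-type myoblasts (right). The medians run from -0.40 to 0.19 on the left and from 0.38 to -0.89 on the right, and Emd lies below its class in both panels.

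The genes that work with each member were then read as lists, with their counts past 2-fold and their medians. Of all genes tested, 1.23% to 2.74% passed 2-fold in the knockout comparisons with wild type, so 0 in a short list is near that share. In wild-type muscle against wild-type myoblasts 37.2% of all genes were lower past 2-fold and 16.9% higher. These shares apply to every list below. BAF is phosphorylated by the kinases VRK1 to VRK3, which release it from DNA, and dephosphorylated by PP2A and PP4 phosphatases. Of 9 such genes, 0 passed 2-fold in each of the knockout comparisons with wild type. In wild-type muscle against wild-type myoblasts 5 of 9 fell, or 2 of 9 once the median of all genes (-0.57) was subtracted, and the list's median was -1.07. Vrk1 fell to 1.97 FPKM in wild-type muscle, against 11.6 FPKM in each wild-type myoblast group, and the phosphatase subunit gene Ppp2r1b fell to 3.49 against 23.4 FPKM; these 2 also passed after that subtraction. The phosphatase gene Ppp4c (5.84 against 19.3 FPKM) fell on the deposited scale only. Vrk1 was 11.1 FPKM in Lbr-knockout and 9.59 in Lmna-knockout myoblasts.

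The lamina genes hold the direct anchors of the LEM proteins. Lmna fell in Lmna-knockout myoblasts and was the sole one of 13 lamina genes past 2-fold there. Lbr alone fell in Lbr-knockout muscle. In Lmna-knockout muscle 2 of 13 fell, Lmna and the B-type lamin gene Lmnb2 (3.59 against 9.13 FPKM). In Lbr-knockout myoblasts 0 of 13 passed 2-fold, and Lbr itself did so after subtraction of the median of all genes. Lmnb1, the other B-type lamin gene, was 21.4 FPKM in Lbr-knockout myoblasts against 24.3 in their control and 22.7 in Lmna-knockout myoblasts against 21.7 in theirs. In muscle it was 6.61 FPKM in the Lbr knockout, 4.25 in the Lmna knockout and 5.77 in wild type. In the tissue comparison 1 of 13 rose and 5 of 13 fell, with a median of -0.36; relative to the median of all genes 4 rose and 3 fell and the list's median turned to 0.21. Among those that fell was Tmem43, whose product binds emerin and lamins (12.2 FPKM in wild-type muscle against 60.7 in wild-type myoblasts). Lmnb1 also fell (5.77 against 23 FPKM). Lmna fell on the deposited scale (59.5 against 131 FPKM) but not relative to the median of all genes.

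Emerin partners include the transcriptional regulators Bclaf1, Gmcl1 and Lmo7 and the cadherin-linked protein gene Ctnnb1. In each knockout comparison with wild type 0 of 8 passed 2-fold, against 1.23% to 2.74% of all genes. Lmo7 differed by -0.55 in Lmna-knockout myoblasts (2.92 against 4.74 FPKM). In wild-type muscle Bclaf1 (20.3 against 88.7 FPKM) and Ctnnb1 (67.9 against 208) fell and Lmo7 rose (13.1 against 4.23). In all 3 of 8 fell and 1 rose, where 37.2% of all genes fell and 16.9% rose. Relative to the median of all genes 2 fell and 1 rose. The list's median was -0.49, or 0.08 relative to that of all genes, beside -3.74 and -3.17 for Emd.

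For MAN1, the SMAD genes and the SMAD phosphatase gene Ppm1a had 0 members past 2-fold in each knockout comparison with wild type, of 7 compared in myoblasts and 6 in muscle. The SMAD target genes likewise had 0 of 9 in myoblasts and 0 of 8 in muscle. The share of all genes was 1.23% to 2.74%. In Lbr-knockout against Lmna-knockout myoblasts 3 of 9 target genes were lower past 2-fold, where 1.35% of all genes were. Among these target genes were Ctgf (570 against 1360 FPKM) and Smad6 (9.68 against 21.9). Relative to the medians of their length classes 1 of 8 was lower past 2-fold. Between the wild types of those litters 0 of 9 passed 2-fold, 1 of 9 was above 0 and the median was -0.32. In wild-type muscle 9 of 9 target genes fell, also relative to the median of all genes, with a median of -2.63, among them Ctgf (6.24 against 889 FPKM) and Pmepa1 (4.66 against 107), while 2 of 7 SMAD and phosphatase genes fell, Smad2 and Smad9, on either scale. Lemd3 itself, at -0.68, did not pass 2-fold.

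For LEM2, none of 11 ESCRT-III and associated genes passed 2-fold in a knockout comparison with wild type, against 1.23% to 2.74% of all genes. The furthest was Chmp1b, at 8.96 FPKM in Lmna-knockout myoblasts against 15.9 in their control (-0.76) and 12.4 in Lbr-knockout myoblasts against 19.1 in theirs (-0.58). In wild-type muscle Chmp4b (52.3 against 18.2 FPKM) and Chmp2a (73.1 against 26.7) rose and Chmp1b fell (4.34 against 17.5), on either scale. The median of the list was -0.19, or 0.38 relative to the median of all genes. Lemd2, at -0.10, also lay above the median of all genes.

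For LAP2-alpha, none of 10 retinoblastoma and E2F family genes passed 2-fold in a knockout comparison with wild type. The share of all genes was 1.23% to 2.74%. E2f2 differed by 0.72 in Lbr-knockout myoblasts (3.48 against 1.73 FPKM), E2f4 by 0.54 in Lmna-knockout myoblasts (17.9 against 12.1), and Tfdp2 by 0.85 in Lmna-knockout muscle (9.77 against 4.97). In wild-type muscle 5 of 10 fell, against 37.2% of all genes, with a median of -1.06. Relative to the median of all genes 2 of 10 fell, E2f1 (1.51 against 12.8 FPKM) and E2f3 (3.02 against 13.7). Of the proliferation genes 26 of 26 fell in the same comparison, or 23 of 26 relative to the median of all genes, with a median of -3.10, and their summed level was 167 FPKM in wild-type muscle against 1300 FPKM in each wild-type myoblast group. The part of proliferation in the Tmpo difference of -1.25 was not tested.

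**Figure D4:**
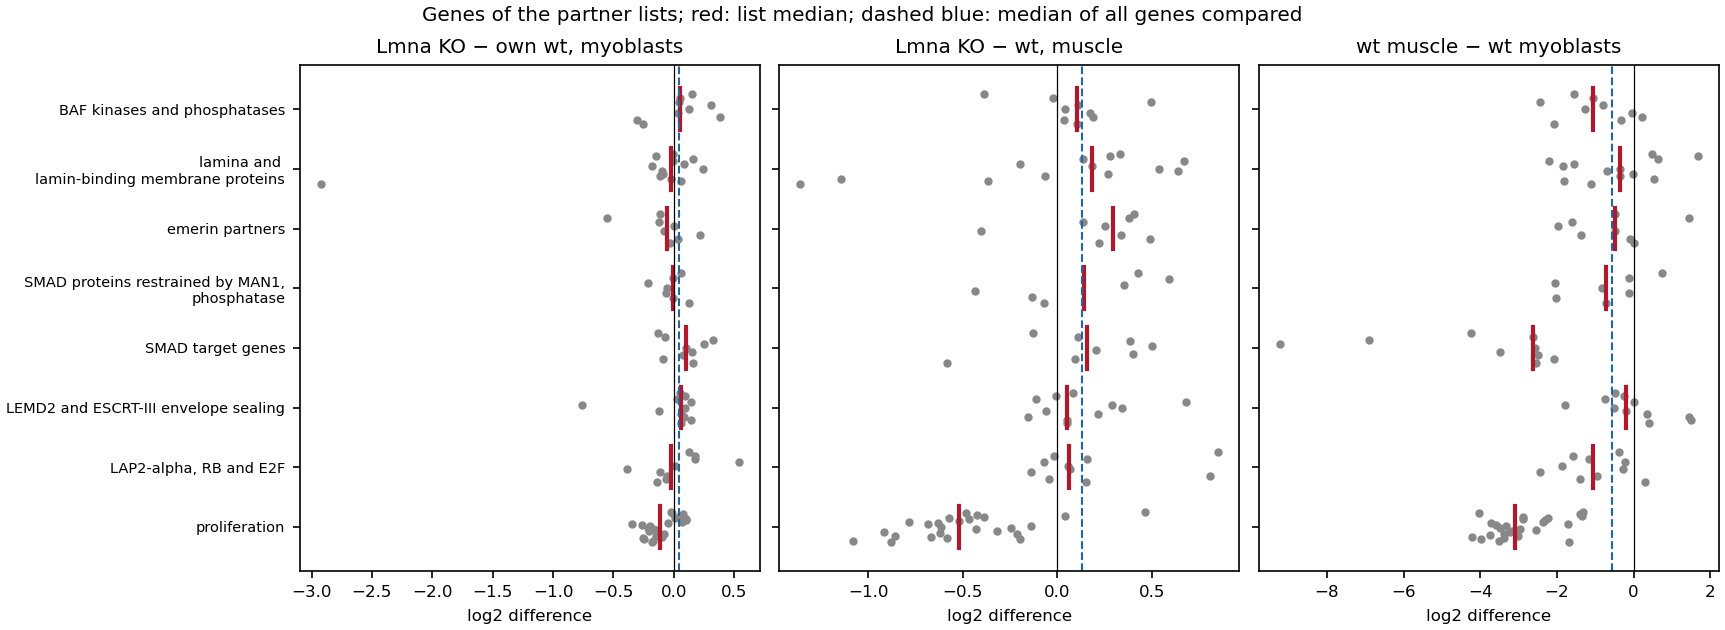
Log2 difference (horizontal axis) of each gene (grey points, spread vertically for legibility) in 8 lists of genes that work with the members, in Lmna-knockout myoblasts against their control (left), Lmna-knockout muscle against wild-type muscle (middle) and wild-type muscle against wild-type myoblasts (right). Red bars are list medians and dashed lines medians of all genes; on the right, the SMAD target and proliferation lists lie lowest, with medians of -2.63 and -3.10, and the far-left point of the left panel is Lmna.

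Genes with the most similar pattern were found for each member as the smallest root mean square difference of mean-centred log2 values over the 7 groups, among 7779 genes. For Emd these were Pkp2 (0.102), Serpinf1 (0.122) and Fblim1 (0.148); Serpinf1 measured 40 to 46.7 FPKM in the muscle groups and 603 to 944 FPKM in the myoblast groups. Pkp2 encodes a desmosomal plakophilin and, as with Emd, was lowest in Lmna-knockout muscle (0.297 FPKM, against 0.817 in wild-type muscle) and highest in Lmna-knockout myoblasts (33.3, against 26.4 in their control). For the other members the nearest genes were closer: Mtor for Ankle2 (0.046), Fez2 for Banf1 (0.055), Zscan21 for Lemd2 (0.056), Rab3gap2 and Dusp11 for Lemd3 (0.060 each) and Capza1 for Tmpo (0.063). Likeness over 7 groups in 2 tissues is a description, since most of the pattern is the contrast of the tissues.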

How the data were processed

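The deposited table gives FPKM for 7 groups of 12 samples, calculated by the authors, with 1 value per gene and group and 0 value columns left unmatched. The submitters' processing notes name build mm9; for aligner, quantifier, annotation and pooling of samples, nothing is given in the sources used here. Per the labels' protocols, TRIZOL-isolated RNA was made into libraries with NuGEN Ovation RNA-Seq for myoblasts and the NuGEN complete protocol for muscle. Depth per library is unknown, and whole counts could not be recovered.

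Differences were taken on log2(FPKM + 1), for genes that averaged 1 FPKM or more over the groups compared with none listed at 0. Since each group has a single value, a 2-fold difference stood in for a test. It says nothing about variation between animals. The exception was limma 3.58.1 (R 4.3.3, trend) on the 4 myoblast groups with both wild types as 1 group and Benjamini-Hochberg adjustment over 11447 genes. Knockout groups are assumed there to vary like the wild types. Both procedures were tested on simulated data. Transcript lengths came from GENCODE M21, which is of another build, for 89.5% of genes; they served for length classes and the rough fragment estimate.

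The members, 9 partner lists and 10 marker lists (1 gene, Syne3, unmatched) were chosen with earlier results of these data known. Named were all members, up to 3 genes per partner list by size of difference, Vrk1, Lmna, Lbr, Lmnb1 and Lmnb2, and the 3 genes nearest in pattern to each member with a mean of at least 5 FPKM. Top2a is of a partner list; other genes came from the marker lists. A gene that the rule would name is not reported here. In wild-type muscle against wild-type myoblasts, past 2-fold were 10 of 10 muscle-fibre genes upwards, 5 of 7 myoblast genes upwards and 1 downwards, 3 of 5 differentiating-myoblast genes upwards, 1 of 9 macrophage genes upwards and 6 downwards, and 4 of 4 endothelial genes upwards. There, 2 of 5 Schwann-cell genes were higher and 1 lower, 2 of 6 fibroblast genes higher and 1 lower, 1 of 1 lymphoid and 1 of 1 adipocyte gene higher, and 2 of 5 sex-linked genes higher and 1 lower. Alternatives were other pseudocounts, filters and scalings and other wild-type controls. The direct comparison of myoblast knockouts, that of the wild-type litters and centring by length class were added after the data were seen.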

Additional observations from a re-analysis of the deposited data

How the results depend on the processing

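Members past 2-fold numbered 0 in the 7 comparisons other than that of the tissues under every alternative run there. In wild-type muscle against wild-type myoblasts 2 members passed, and the count was 1 under median centring, 1 under quantile normalization and 1 under centring on the median of the length class, because Tmpo was then at -0.67, -0.85 and -0.85. Emd passed under every alternative there. The limma fit called 0 members under every setting. Counts over all genes moved by over 1.5 times with the pseudocount (302 genes in Lbr-knockout myoblasts became 493 at 0.1 FPKM and 86 at 5; 140 in Lmna-knockout myoblasts became 220 and 32; 191 in Lbr-knockout muscle became 449 and 48; 329 in Lmna-knockout muscle became 716 and 98). A filter at 5 FPKM lowered these 4 counts to 135, 53, 66 and 187. The same 3 settings (0.1, 5, filter) turned 184 genes between the muscle knockouts into 427, 56 and 109, 398 between the myoblast knockouts into 703, 134 and 248, and 309 between the wild-type litters into 599, 93 and 184. Quantile normalization gave 279 between the muscle knockouts, and a pseudocount of 5 gave 4115 in place of 6448 between tissues. Against the other litter's wild type the Lmna-knockout count was 520, and against the mean of both the Lbr-knockout count was 152. In limma, the 37 and 47 calls became 14 and 43 at a pseudocount of 0.1, 71 and 58 at 5, 1 and 1 with quantile normalization and 0 and 0 with no filter, where 545 and 438 genes had an unadjusted p under 0.05. Median centring moved the share of higher genes among those past 2-fold between tissues from 31.3% to 54.3%, and in Lmna-knockout muscle from 71.4% to 57% (51.4% with quantile normalization). Quantile normalization moved it from 82.7% to 64.1% in Lbr-knockout muscle and to 43.8% between tissues, and length classes from 60.8% to 73% between the myoblast knockouts and to 52.6% between tissues. Between the wild-type litters the share was 24.9%, and 36.7% with median centring. No paired analysis was possible because each group has 1 column and the columns carry no replicate numbers; leaving out replicates was not run for the same reason. Depth limits Emd in muscle most, with a rough estimate of 13 fragments in Lbr-knockout, 4.4 (less distinct) in Lmna-knockout and 17 in wild-type muscle.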
